A study of Homo sapiens with 12 samples.

Results

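The regions described here are the H3K27ac peaks that were called in Huh7 cells after knockdown of HSF1 and had no counterpart in control cells. They were chosen by position: every peak of the siHSF1 list on chromosomes 1 to 22 and X that shared no base with any peak of the siNC list. Of 45585 siHSF1 peaks, 11599 met this rule, or 25.4% (95% Wilson interval 25.05% to 25.85%, counting error only). The other 33986 siHSF1 peaks shared at least 1 bp with an siNC peak and are called shared below. The contrast that chose the regions also shapes their length, height and position, so these values are given as a description, without a test.

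Huh7 is a human hepatocellular carcinoma line, labelled WT in the control arm and HSF1 knockdown in the other. Cells were transfected with siNC, a control siRNA, or with siHSF1 by Lipofectamine RNAiMAX and collected after 48 h, and which of the siRNAs against HSF1 was used is not named in the labels. Chromatin was crosslinked, cut with micrococcal nuclease and precipitated with an antibody against acetylated lysine 27 of histone H3. Each condition gave 1 H3K27ac library and 1 input library, so no difference between them has a replicate check.

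Acetylation of this lysine marks the nucleosomes beside active promoters and enhancers, where acetyltransferases such as p300 and CBP are recruited by transcription factors, and deacetylases take it away. HSF1 is the main transcription factor of the heat shock response, and in cancer cells it also acts at many other genes. A super-enhancer is a long run of such enhancers with much H3K27ac, found by joining neighbouring peaks. In liver cells, runs of this kind lie around genes of hepatocyte identity. The comparison asks which acetylated regions are listed after knockdown of HSF1 and not in control cells collected at the same time after transfection.

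The siHSF1 library kept 10793650 tags after removal of duplicates and the siNC library 9795121. MACS, the peak caller, extended the tags to 175 bp in the siHSF1 library and to 297 bp in the siNC library, and no peak can be shorter than this length. The siNC list was the smaller in number, with 41081 peaks, but covered 42.0 Mb against 24.2 Mb for siHSF1. All positions are on hg19, the build named in the headers of both lists. The gene annotation and genome at hand were on hg38, and 77 of the 11599 siHSF1-only peaks run past the end of the chromosome of that name in it. Positions were therefore not converted, and gene names and sequences at these peaks are not given.

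The siHSF1-only peaks were short. Their median length was 232 bp (quartiles 179 bp and 310.5 bp), against 404 bp (252 bp and 724 bp) for the shared peaks, a ratio of 0.574. At the minimum of 175 bp stood 2672 of them, or 23.04%, while 6.73% of the shared peaks had that length. A length of 1000 bp or more was reached by 9 siHSF1-only peaks (0.0776%) and by 5203 shared peaks (15.3%). Together the siHSF1-only peaks covered 3.11 Mb, which is 12.8% of the bases in the siHSF1 list.

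They were also low. The pileup, which counts the extended tags that cover a peak's summit, had a median of 8 tags and quartiles of 7 and 9 tags. Among shared peaks the median was 10 tags, with quartiles of 8 and 14 tags. Between 6 and 9 tags lay 78.9% of the siHSF1-only peaks and 40.2% of the shared ones. The fold enrichment, the ratio of summit pileup to local background after adding 1 to each, had a median of 4.71 (quartiles 4.12 and 5.30) against 5.88 (4.71 and 7.65), a difference of -0.32 on the log2 scale. The median -log10 q of the caller was 3.59 for siHSF1-only and 5.61 for shared peaks. A -log10 q of at least 5 was held by 2677 siHSF1-only peaks (23.1%) and by 60.5% of the shared ones. The siHSF1-only fold enrichments, from 2.69 to 12.1, lay inside the range of the shared peaks, which reached 32.3.

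**Figure D1:**
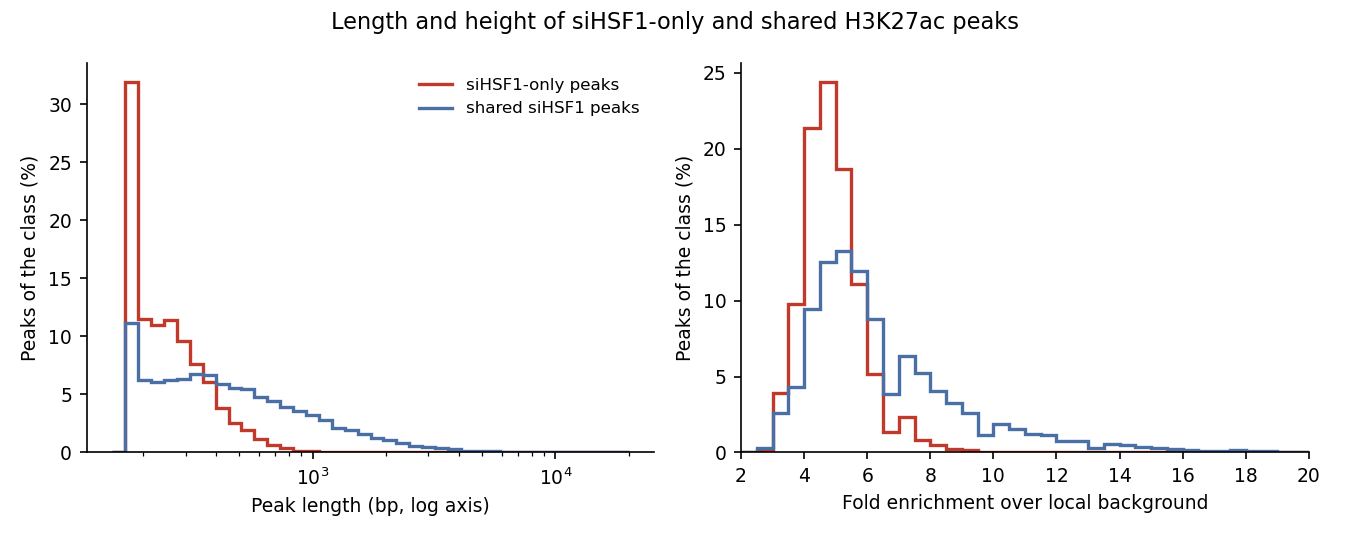
Distribution of peak length in bp on a log axis (left) and of fold enrichment (right, drawn up to 20) for 11599 siHSF1-only and 33986 shared siHSF1 peaks, each as percent of its class. The siHSF1-only peaks gather at the minimum length of 175 bp and around a fold enrichment of 4.71, and the shared peaks reach farther right in both plots.

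Because the caller writes down both pileup and fold enrichment, the local background could be recovered for each peak. Its lowest possible value, the genome-wide mean, was 0.700 tags in the siHSF1 library and 1.08 tags in the siNC library. It applied to 43.5% of siHSF1-only and 39.7% of shared siHSF1 peaks. On that background the lowest peak called held 5 tags in the siHSF1 list and 6 tags in the siNC list. A median siHSF1-only peak thus stood 3 tags above the lowest call of its own list. In the siHSF1 list, 7 tags on that background give a fold enrichment of 4.71. Heights rise in such steps, so equal medians of 4.71 in the comparisons below do not show equal heights.

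The share of siHSF1-only peaks fell with height. Below a fold enrichment of 4, 1606 of 4053 siHSF1 peaks (39.6%, Wilson interval 38.1% to 41.1%) were siHSF1-only, and from 4 to 5 the share was 41.6% (40.7% to 42.4%). It was 28.7% from 5 to 6, 14.96% from 6 to 7, 8.52% from 7 to 8 and 2.77% from 8 to 10. From 10 to 15 there were 10 siHSF1-only peaks among 3063 (0.326%, 0.177% to 0.600%). At 15 or more there were 0 among 484, which allows a share of up to 0.620% when the limit is set at 3 counts of the total, and 0.787% by the Wilson interval. The siNC-only peaks, the mirror class of 19828 among 41081 siNC peaks (48.3%), also thinned out with height, from 72.2% below 4 to 0.461% between 10 and 15. Of the 21253 shared siNC peaks, 8034 (37.8%) overlapped 2 or more siHSF1 peaks. The shares of the siHSF1 and siNC lists thus do not count like units, and their gap is not a count of regions gained or lost. Nor is a given fold enrichment the same height in both lists. On the genome-wide background, 7 tags gave 4.71 in the siHSF1 list and 3.85 in the siNC list. At equal height the siHSF1-only peaks remained the shorter ones. Between a fold enrichment of 5 and 6 their median length was 225 bp and that of shared peaks 334 bp, and between 8 and 10 the medians were 330 bp and 760 bp.

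**Figure D2:**
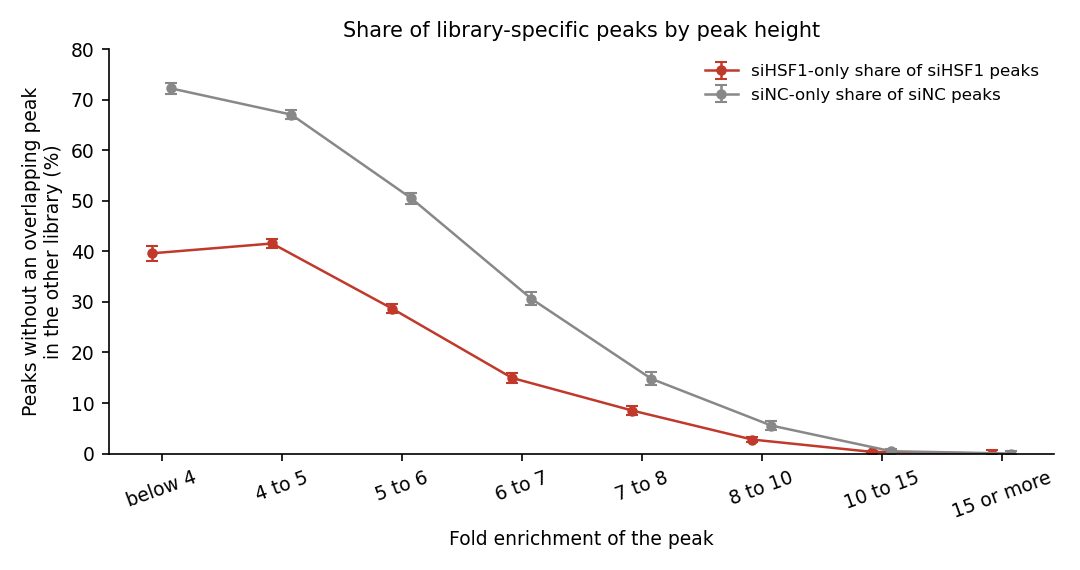
Share of peaks with no overlapping peak in the other library, in percent, by fold enrichment of the peak, for siHSF1 peaks (red) and siNC peaks (grey). Bars are 95% Wilson intervals. A given fold enrichment is not the same height in both lists. The siHSF1-only share drops from 41.6% between 4 and 5 to 0.326% between 10 and 15, and no peak of 15 or more is specific to a library.

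Length sorted the peaks in the same way. Of the siHSF1 peaks up to 220 bp long, 45.7% were siHSF1-only, and of those above 590 bp, 2.34% were. Among the short peaks the median fold enrichment was 4.71 for siHSF1-only and 5.10 for shared ones, and among the long peaks it was 5.61 and 7.82.

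In the lists as deposited, most siHSF1-only peaks lay within 1 kb of an siNC peak. The median distance from the edge of a siHSF1-only peak to the edge of the nearest siNC peak was 619 bp (quartiles 220 bp and 3.43 kb). When both lists were limited to a -log10 q of 5 or more, 4660 peaks were siHSF1-only and the median was 1568.5 bp. Most of these 4660 lay farther than 1 kb, but the limit also took away weaker siNC peaks. With the limit on the siHSF1 list alone, 2677 peaks were siHSF1-only and their median distance was 473 bp. In the deposited lists, 44.9% of the 11599 lay within 500 bp, 6951 (59.9%, Wilson interval 59.0% to 60.8%) within 1 kb and 77.2% within 5 kb. Farther than 100 kb from any siNC peak lay 497 (4.28%). The siNC-only peaks were farther from their counterparts, with a median of 1456 bp to the nearest siHSF1 peak and 41.7% within 1 kb. The siNC tags were extended by a longer fragment length and the siNC peaks are longer, and the part of this in either distance was not tested.

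Some of the control peaks beside siHSF1-only peaks were specific to their own library. For the 6951 siHSF1-only peaks within 1 kb, the nearest siNC peak was siNC-only in 2765 cases (39.8%), so that both libraries listed acetylation within 1 kb of each other without a common base. Beyond 1 kb this share was 46.3%, and over the whole siNC list 48.3% of peaks were siNC-only. The 6355 siNC peaks that were nearest to a siHSF1-only peak within 1 kb, siNC-only and shared ones together, had a median fold enrichment of 5.29 and a median length of 627 bp, against 5.12 and 575 bp over all siNC peaks. An siNC peak stood within 1 kb on both sides of 1714 siHSF1-only peaks (14.8%). The median fold enrichment of siHSF1-only peaks was 4.71 within 1 kb, 4.71 beyond it and 4.89 for those more than 100 kb away. Since 4.71 is a tied value, the equal medians do not show that height was unrelated to distance.

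At the boundary of the rule the peaks on either side had like medians. There were 741 siHSF1-only peaks with under 50 bp to an siNC peak, of which 27 touched it, and 841 shared peaks with at most 50 bp in common. Both sets had a median fold enrichment of 4.71, and their median lengths were 242 bp and 241 bp. Just inside the rule, the peak at chr8:8860482-8860883 touched an siNC peak and had 11 tags and a fold enrichment of 7.06. The peak at chr1:217804138-217804357 also touched an siNC peak and had 12 tags and a fold enrichment of 6.63. The third was chr7:46189743-46189917, with 10 tags and a fold enrichment of 5.98. Just outside, the peak at chr1:220128194-220128489 shared 1 bp with an siNC peak and had 12 tags and a fold enrichment of 6.48. The peaks at chr7:152161689-152162238 and chr7:21625447-21625943 also shared 1 bp, with 9 tags each and fold enrichments of 5.88 and 5.81.

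**Figure D3:**
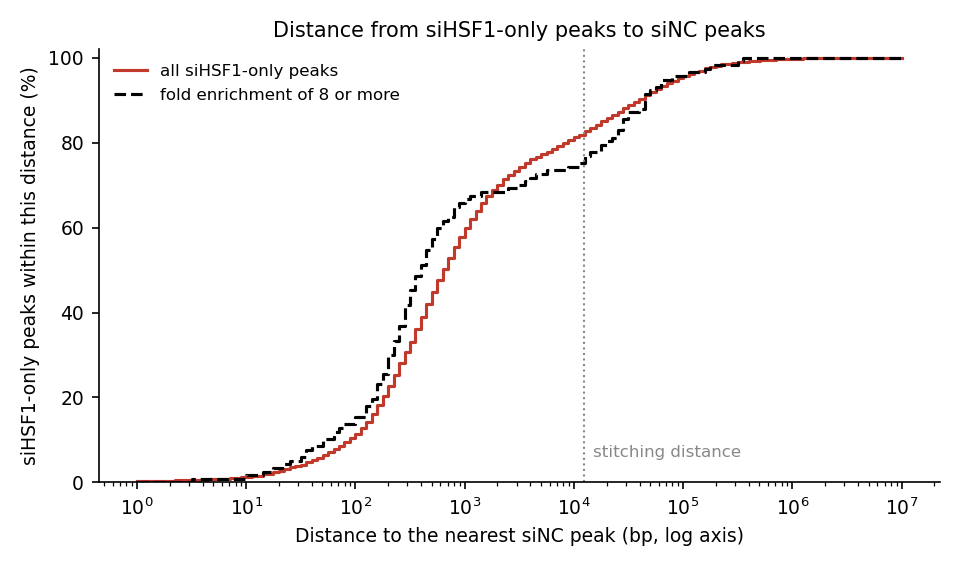
Cumulative percent of siHSF1-only peaks against the distance to the nearest siNC peak in bp on a log axis, for all 11599 peaks (red) and for the 117 with a fold enrichment of at least 8 (black, dashed). The dotted line is the stitching distance of 12.5 kb. Of all peaks 59.9% lie within 1 kb, and of the 117 highest 66.7% do, while 17.3% of all and 23.1% of the 117 lie right of the dotted line.

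Most tall siHSF1-only peaks, like most of the whole class, lay either beside or far from control peaks. A fold enrichment of at least 8 was reached by 117 siHSF1-only peaks (1.01%), a limit that was chosen after the values were seen. Of these, 78 (66.7%, Wilson interval 57.7% to 74.6%) lay within 1 kb of an siNC peak, against 59.9% of all siHSF1-only peaks. Another 27 (23.1%, 16.4% to 31.5%) lay more than 12.5 kb from any siNC peak, on 15 chromosomes, against 17.3% of all. Both intervals include the share of the whole class. In the mirror class, 4221 of 19828 siNC-only peaks (21.3%) lay more than 12.5 kb from any siHSF1 peak. Those 27 had between 13 and 20 tags at the summit and a median distance of 40.7 kb to the control list. Of the 27, 20 stood alone and 7 had siHSF1-only peaks as company, and the distance limit itself keeps shared peaks out of their clusters in nearly all cases.

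The highest siHSF1-only peak was far from control peaks. It lay at chr12:51632675-51632970 on hg19, and reached a fold enrichment of 12.1 at 20 tags, with 18.8 as its -log10 q. Of all siHSF1 peaks 96.5% were lower. A pair of smaller siHSF1-only peaks flanked it, chr12:51632225-51632399 with 9 tags and chr12:51633183-51633379 with 8 tags, and the nearest siNC peak was 20.9 kb away from the highest one. The peak at chr22:18934649-18934922 had 20 tags and a fold enrichment of 10.7, stood alone and was 40.95 kb from the control list. The peak at chr1:88042450-88042935, with 16 tags and a fold enrichment of 10.0, was 112 kb away, and the peak at chr11:77010894-77011200, with the same tags and fold enrichment, was 56.5 kb away. In each of these 4 places the siHSF1 list thus held a peak in the top 10% of its heights, and the control list held none within 12.5 kb.

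The remaining 6 of the 10 highest lay within 1 kb of an siNC peak. The peak at chr11:62538247-62538498 had 18 tags and a fold enrichment of 11.2, and an siNC peak with a fold enrichment of 9.57 began 229 bp from it. The peaks at chr2:62806786-62807111 and chr18:21643465-21643750 had 17 tags and a fold enrichment of 10.6, and their distances were 572 bp and 202 bp. The peak at chr1:114521653-114521907 had 18 tags and a fold enrichment of 10.3 at 196 bp. The peak at chr9:139377967-139378250 had 19 tags and a fold enrichment of 10.2 at 735 bp. The last, chr8:64081199-64081380, had 16 tags and a fold enrichment of 10.0 and stood 95 bp from an siNC peak. At these 6 places the neighbouring siNC peaks had fold enrichments between 4.77 and 9.57, so acetylation was listed in both conditions close by.

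A ranking by pileup instead gave other regions. The 5 highest pileups were 32 tags at chr12:30741902-30742114, 30 tags at chr12:31004259-31004479, 28 tags at chr17:80544131-80544316, 26 tags at chr12:30779661-30779841 and 22 tags at chr11:67196021-67196352. The fold enrichment of the first was 3.15, lower than that of all but 1.37% of siHSF1 peaks, since its local background was 9.47 tags against a median of 0.772 tags among siHSF1-only peaks. The backgrounds of the next 3 were 4.25, 7.67 and 7.87 tags, and that of the fifth was 2.20 tags. A background of at least 4 tags was found at 5 siHSF1-only peaks (0.0431%) and at 44 shared peaks (0.129%). From 30 to 31 Mb of chromosome 12, the median background was 7.81 tags over 9 siHSF1 peaks and 10.7 tags over 6 siNC peaks, so it was raised in both libraries. Its part in these calls was not tested.

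By length, the first 5 siHSF1-only peaks were chr8:32950933-32952449 with 1517 bp, chr9:131904367-131905824 with 1458 bp, chr2:189494791-189496047 with 1257 bp, chr1:39455463-39456684 with 1222 bp and chr2:191513838-191514963 with 1126 bp. They held between 9 and 13 tags at the summit, with fold enrichments from 4.11 to 7.15. The longest lay in a cluster of 11 siHSF1 peaks, 5 of them siHSF1-only, and 1.85 kb from an siNC peak. The third and the fifth were 22.6 kb and 38.9 kb from the control list.

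Once fold enrichments below 5 were set aside, the siHSF1-only peaks farthest from an siNC peak were mostly on the X chromosome. The first, chrX:95662434-95662613, was 2777 kb from the nearest siNC peak and had 10 tags and a fold enrichment of 6.47. A pair at chrX:112642536-112642798 and chrX:112643115-112643308, with 9 and 10 tags, was 1933 kb and 1932 kb away. The peak at chr9:47247765-47248083 was 1775 kb and the peak at chrX:75365376-75365552 was 1676 kb away, with 11 and 10 tags. The control list had 683 peaks on the X chromosome and 410 on chromosome 21, where the median distance of siHSF1-only peaks was 822.5 bp and 535 bp. The peak counts were not scaled to chromosome length, so they do not compare how densely control peaks lie. The part of peak number in these distances was not tested.

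Clusters were formed as the study did for super-enhancers, by joining siHSF1 peaks at most 12.5 kb apart. This gave 13376 clusters, counting a single peak as a cluster. Of the siHSF1-only peaks, 9324 (80.4%, Wilson interval 79.7% to 81.1%) had another siHSF1 peak in their cluster, against 92.4% (92.1% to 92.6%) of the shared peaks. A shared peak was present for 8318 of them (71.7%), while 2275 (19.6%) stood alone and 1006 (8.67%) were grouped with siHSF1-only peaks alone. Inside a stitched region of the siNC list lay 4454 (38.4%).

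The share of siHSF1-only peaks was lower in larger clusters. Among peaks that stood alone it was 46.7%, in pairs 29.1%, in clusters of 5 to 9 peaks 22.9%, and in the 152 clusters of 20 or more peaks 18.7% (17.6% to 19.9%). These largest clusters held 796 siHSF1-only peaks. The median fold enrichment was 4.71 for siHSF1-only peaks that stood alone, for those grouped with a shared peak and for those grouped among themselves. The share with a fold enrichment of at least 5 was 43.4%, 38.8% and 46.6% in the same order.

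Clusters of siHSF1-only peaks alone numbered 2723, or 20.4% of all siHSF1 clusters, and 1671 of them (61.4%) were more than 12.5 kb from any siNC peak. The joining rule leaves no shared siHSF1 peak within 12.5 kb of such a cluster, which itself tends to keep shared siNC peaks away. These clusters were small: 2275 held 1 peak, 358 held 2, 75 held 3, 11 held 4, 3 held 5 and 1 held 6. The median span was 1.149 kb for pairs and 2.60 kb for clusters of 3.

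The cluster of 6, chr17:73839977-73851981, spanned 12.005 kb, with 6 to 8 tags at its peaks and fold enrichments from 4.12 to 5.30. A single siNC peak, with a fold enrichment of 6.98 in its own library, lay in a gap between them. The cluster at chr11:26049551-26053258 had 5 peaks within 3.71 kb and fold enrichments from 4.98 to 7.65, and 1 siNC peak of 5.29 lay among them. The 5 peaks at chr17:71065396-71071248, spanning 5.85 kb, had 7 to 10 tags, and here the nearest siNC peak was 37.7 kb away. The cluster of 5 at chr10:34474952-34501590 was spread over 26.6 kb, with fold enrichments up to 4.59. Of the 11 clusters of 4, the one with the highest summed fold enrichment, chr16:79628203-79636188, spanned 7.99 kb and reached a fold enrichment of 7.65. An siNC peak lay inside both of the latter, with fold enrichments of 3.67 and 2.82. Of the 5 clusters, the one at chr17:71065396-71071248 had no siNC peak within its span.

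**Figure D4:**
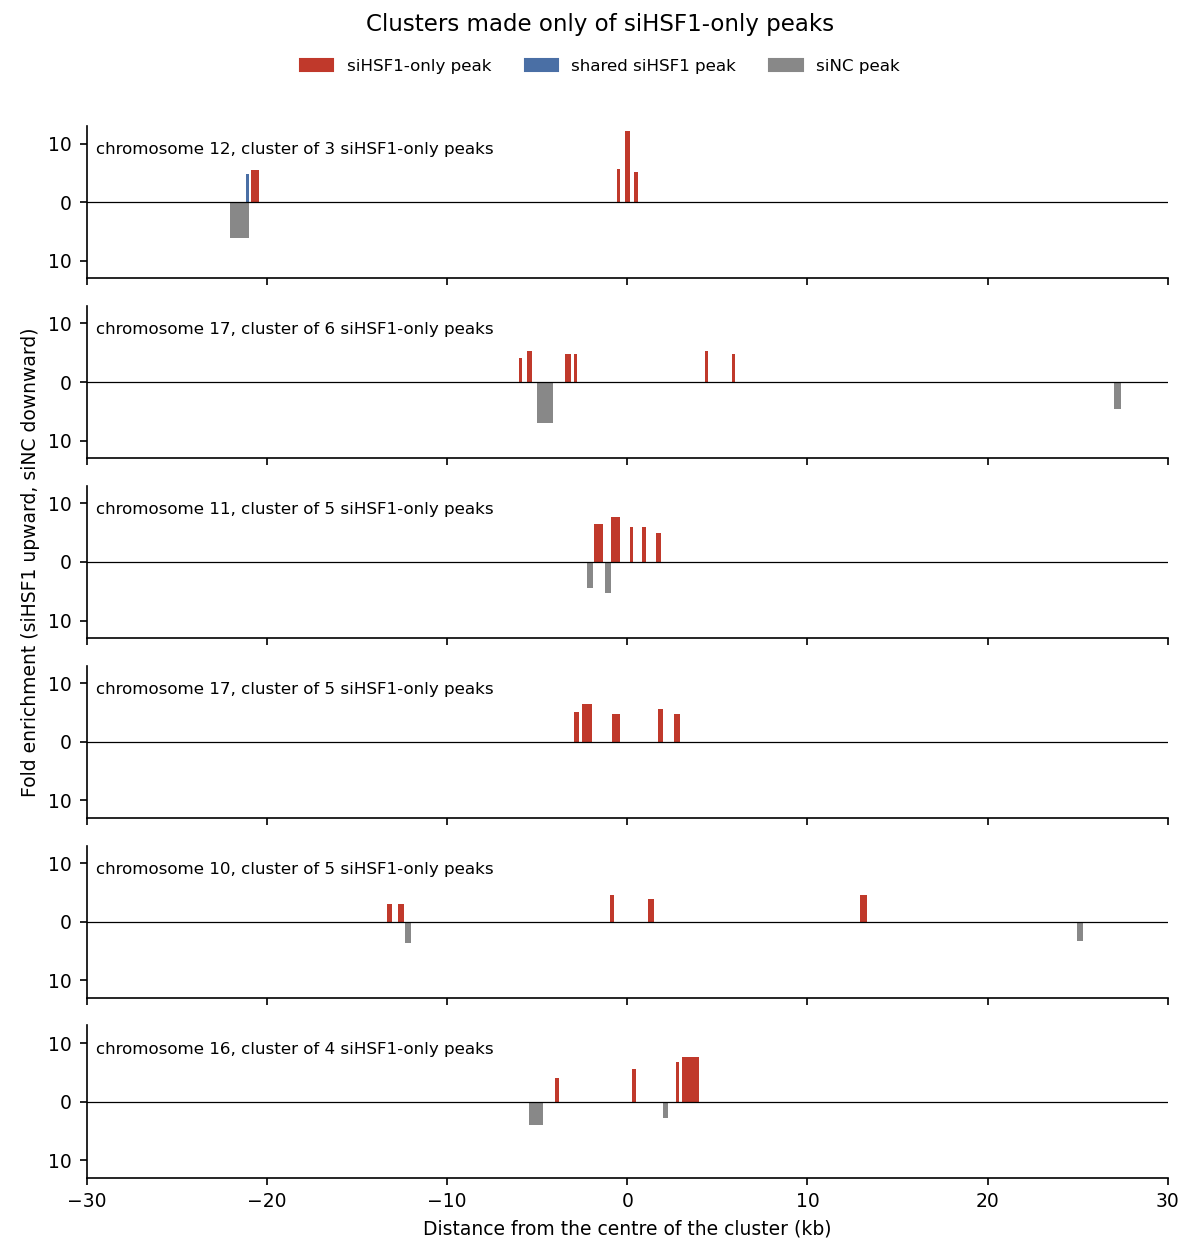
Peaks around the cluster of the highest siHSF1-only peak (top) and the 5 clusters with the most siHSF1-only peaks and no shared peak (ties by summed fold enrichment), by distance from the cluster's centre in kb, with peak widths to scale. Fold enrichment is drawn upward for siHSF1 peaks (red siHSF1-only, blue shared, neighbouring clusters included) and downward for siNC peaks (grey). In 4 of the 6 panels an siNC peak falls in a gap of the cluster, and none does in the top panel or in the chromosome 17 cluster of 5.

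Mixed clusters held more of them. At chr11:86167456-86237770, 17 of 45 siHSF1 peaks were siHSF1-only, over 70.3 kb in which the control list had 23 peaks. The siHSF1-only peaks there reached a fold enrichment of 7.06 and the shared ones 13.5. The clusters at chr9:84131788-84253203, chr11:12145538-12257716, chr19:909846-993025 and chr17:48705387-48797742 held 13 siHSF1-only peaks each, among 70, 64, 41 and 35 siHSF1 peaks. In all 5 of these mixed clusters the tallest siHSF1-only peak, between 5.88 and 7.65, was lower than the tallest shared one, between 13.5 and 18.8.

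Every chromosome used carried siHSF1-only peaks, from 99 on chromosome 21 to 1072 on chromosome 1, and their share of a chromosome's siHSF1 peaks ranged from 22.8% to 30.7%. The interval excluded the whole-list share of 25.4% on 4 of 23 chromosomes. Chromosome 11 was below it, with 483 of 2118 peaks (22.8%, 21.1% to 24.6%). Above it were chromosome 16 with 412 of 1427 (28.9%, 26.6% to 31.3%), chromosome 19 with 450 of 1551 (29.0%, 26.8% to 31.3%) and the X chromosome with 206 of 670 (30.7%, 27.4% to 34.3%). These intervals are not adjusted for the number of chromosomes.

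The mirror class set the last 2 apart. On the X chromosome the siNC-only share was also the highest, at 53.4%, while on chromosome 19 it was the lowest, at 43.8%. Chromosome 19 had 1.23 siHSF1 peaks for each siNC peak, the highest ratio, and the X chromosome had 0.981. The median fold enrichment of siHSF1-only peaks lay between 4.59 and 4.71 on every chromosome, and the median distance to the control list between 480 bp on chromosome 22 and 822.5 bp on the X chromosome.

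**Figure D5:**
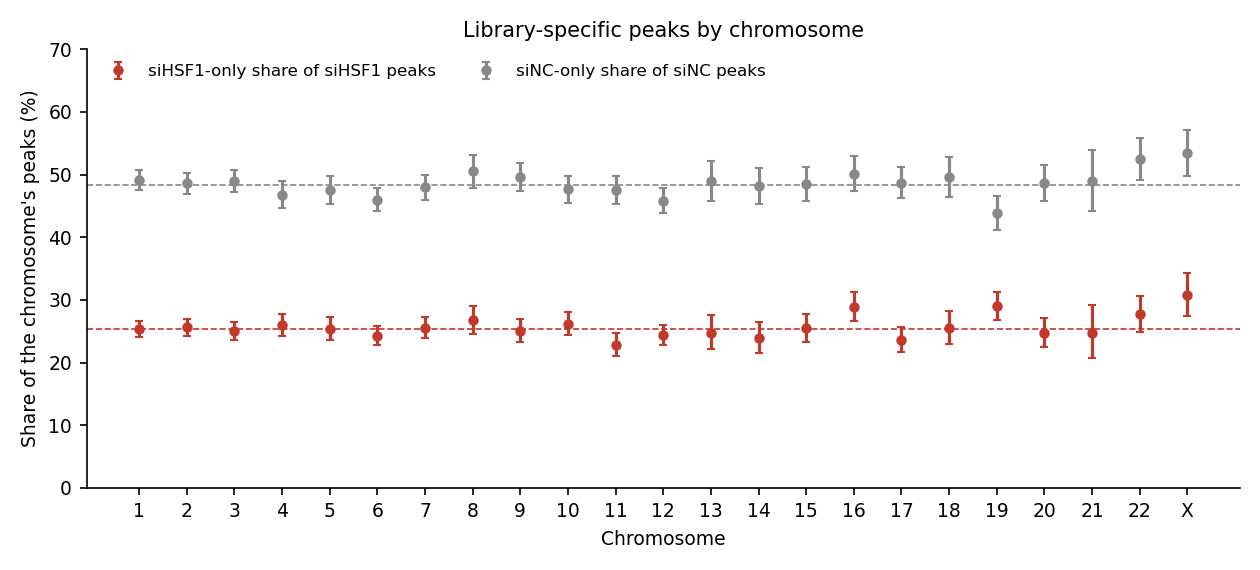
Percent of each chromosome's siHSF1 peaks that are siHSF1-only (red) and of its siNC peaks that are siNC-only (grey), with 95% Wilson intervals. Dashed lines are the shares over all chromosomes, 25.4% and 48.3%. Chromosome 19 has a high red and the lowest grey value, and the X chromosome has the highest of both.

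In windows of 1 Mb, 2114 of the 2368 windows with an siHSF1 peak had a siHSF1-only peak, with a median of 3. The window with the most was 29 to 30 Mb of chromosome 22, where 41 of 111 siHSF1 peaks (36.9%) were siHSF1-only and 53 of 99 siNC peaks were siNC-only. It was followed by 8 to 9 Mb of chromosome 1 with 35 of 151, 45 to 46 Mb of chromosome 19 with 32 of 135, 132 to 133 Mb of chromosome 9 with 29 of 80, and the first Mb of chromosome 19 with 28 of 85. The windows on chromosome 1 and at 45 Mb of chromosome 19 had shares of 23.2% and 23.7%, near that of the whole list. The windows on chromosomes 22 and 9 had 36.9% and 36.3%, and in the one on chromosome 9, 39 of 67 siNC peaks were siNC-only. The first Mb of chromosome 19 had 32.9%, with 26 of 66 siNC peaks siNC-only.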

How the data were processed

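H3K27ac ChIP-seq peaks of Huh7 cells transfected with siNC or siHSF1 were analysed, with 1 library per condition. The authors called each list with MACS 2.1.1.20160309 against its input, in single-end mode with 1 tag kept per position, at a q-value of 0.05. Paths in the headers give hg19 and BWA as genome and aligner, whereas Bowtie2 and hg38 are given in the methods. The deposited pileup is a coverage signal in tags, which was not brought to a common depth. The authors' fold enrichment is the ratio of that signal to local background. The deposited lists also hold the caller's -log10 p-value (not used) and its -log10 q-value. Other columns held positions and lengths. The lists were called separately, so a region missing from a list may hold signal below its cutoff.

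Overlap was at least 1 shared bp, distances ran from edge to edge, and clusters joined peaks at most 12.5 kb apart. Background was recovered as pileup plus 1 divided by fold enrichment, minus 1. Of the lists, 51 siHSF1 and 27 siNC peaks lay on other sequences and were left out. Intervals for shares are 95% Wilson intervals and cover counting error only, and the limit beside a count of 0 is 3 counts of the total. PCR copies were removed by position, without molecular identifiers. No test between conditions was possible. The regions and the measures were chosen with earlier results of these data known. Regions were named by rule: the highest, longest and farthest peaks, the largest clusters (ties by summed fold enrichment) and windows, and the peaks at the edge of the rule, with fold enrichments of at least 8 more than 12.5 kb from control peaks summarised after the values were seen. Stricter q-values, other overlaps, heights and stitching distances were tried as alternatives. The CUT&Tag lists, on hg38, and the RNA-seq samples were not used here. Functions were tested on simulated data and passed 7 of 7 checks over 6000 peaks. The work was done in Python 3.11.15 with pandas 2.3.3, numpy 2.4.6 and scipy 1.17.1, and plots were drawn with matplotlib 3.10.9.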

Additional observations from a re-analysis of the deposited data

How the results depend on the processing

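Of 22 alternatives for 5 results, 16 moved the value and 6 did not. A change of direction could be scored only for the difference in median fold enrichment, and 0 of its alternatives gave one. A count or ratio was said to move beyond 1.5 times, and a share or median outside the 95% interval of its value. For the difference in median fold enrichment, tied values left this interval without width. Any change beyond rounding was therefore scored as a move for that result. The number of siHSF1-only peaks, 11599 of 45585, was 6399 with siNC peaks widened by 500 bp and 4649 with 1000 bp. It rose to 14995 when siNC peaks had to cover at least 50% of a shared peak. It rose to 15260 when the summit had to lie inside an siNC peak, and neither rise went beyond 1.5 times. Stricter limits on height or q also shortened the siHSF1 list. With a -log10 q of 5 or more for siHSF1 peaks, 2677 of 23248 (11.515%) were siHSF1-only. With a fold enrichment of 5 or more for them, it was 4683 of 28757 (16.285%). With the q limit on both lists it was 4660 of 23248 (20.045%), against 25.4% in the lists as deposited. The difference of -0.32 in median log2 fold enrichment was -0.25 after widening by 1000 bp, -0.22 with the q limit on both lists and -0.12 among peaks up to 220 bp. It was -0.46 at the genome-wide background, an alternative added after the values were seen. The median distance of 619 bp was 1324 bp between summits, 473 bp with the q limit on siHSF1 and 1568.5 bp with it on both lists. The clustered share of 80.4% was 74.2% at 5 kb, 85.8% at 25 kb, 64.9% with the q limit on both lists and 52.3% with siHSF1-only peaks joined alone. The share near gene starts was not run, since the annotation used was on hg38. No paired analysis was possible because each condition has 1 library and no result comes from a test. With 1 library per condition, at 10793650 and 9795121 tags, neither depth nor fragment length can be told apart from the knockdown.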
